A study of Caenorhabditis elegans with 4 samples.

Results

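Aminoacyl-tRNA synthetases join each amino acid to its tRNA and so supply the ribosome with charged tRNA. Animal cells carry one set of these enzymes for the cytosol and another for the mitochondrion, most of them encoded by separate nuclear genes. In mammals, several cytosolic synthetase genes are raised together with asparagine synthetase by the transcription factor ATF4 when uncharged tRNA accumulates. In the deposited table of this study, 28 of 16562 loci were chosen by gene name, an amino acid letter followed by ars or rs and a number, as in kars-1, the lysyl enzyme. They covered 19 of the 20 amino acids, and a glutaminyl enzyme was not analysed here.

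The treated animals were wild-type Caenorhabditis elegans, a nematode, treated at the L4 larval stage with 1 mM MAHMA NONOate, a compound that releases nitric oxide (NO), and left for 4 h at 20 °C. They made up 2 samples and were set against 2 control samples of untreated wild-type worms labelled with the same stage. Worms had been grown on plates with OP50 bacteria as food, RNA came from whole animals, and the labels do not say whether controls were handled with a spent donor. The authors' deposited table holds 1 level per condition, read here as FPKM, which scales reads by transcript length and library size, so that levels of different genes can be set side by side. Values of single samples were not analysed here. The spread between samples is therefore known only through the standard error (SE) implied by the deposited test statistic, and depth is unknown. It is not stated whether samples of the same condition were separate cultures, so the deposited p-values may measure technical spread.

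No synthetase locus was called by the deposited test. Of the 28 loci, 0 had an adjusted p of 0.05 or lower, a threshold reached by 0.399% of all loci in the authors' deposited table and by 0.636% of the 8182 loci with a mean of 10 FPKM or more, as all 28 had. At an unadjusted p under 0.05, 0 of the 28 passed as well, against 3.09% of all loci and 3.07% of those loci. With so few calls over the whole table, 0 calls among 28 loci lie near the background and are not a result about synthetases. Folds ran from 0.691 to 1.13 in the authors' deposited table, and 27 of the 28 lay between 0.8 and 1.25. Of all 7802 loci with a mean of 10 to 500 FPKM, 72.6% lay in that window, beside 26 of the 27 synthetase loci in the same range, a difference that was not tested. These sets are not matched by level. Means of 10 to 100 FPKM were held by 6379 of the 7802 loci but by 11 of the synthetase loci. The median SE was 0.44 over all loci of 10 to 100 FPKM and 0.34 over those above 100 FPKM. Values were lower after NO at 21 synthetase loci and higher at 7. Log2 ratios below 0 were also found at 62.0% of all loci of 10 to 100 FPKM and 76.6% of all loci over 100 FPKM. After centring on loci of the same abundance 9 synthetase loci were lower and 19 higher, so the family has no direction that holds under both scalings. In whole worms, fewer cells of a type and less RNA per cell cannot be told apart.

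Each locus was measured with limited precision. The implied SE of a log2 fold was under 0.45 at 25 of the 28 loci, with a median of 0.34. The 95% interval lay inside 2-fold either way at 21 loci, and its upper bound was under 2-fold at 26. The exceptions above 2-fold were pars-2, with an interval of 0.398 to 2.17, and iars-2, with 0.0445 to 19.2. The isoleucyl gene iars-2 had levels of 53.5 FPKM after NO and 57.9 FPKM in control, yet a deposited test statistic that implies an SE of 2.23. Its change is thus undetermined by the deposited test, and it was the only synthetase locus with an SE above 1. Missing the threshold does not show that a locus stayed the same, and each interval still allows a moderate change.

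**Figure D1:**
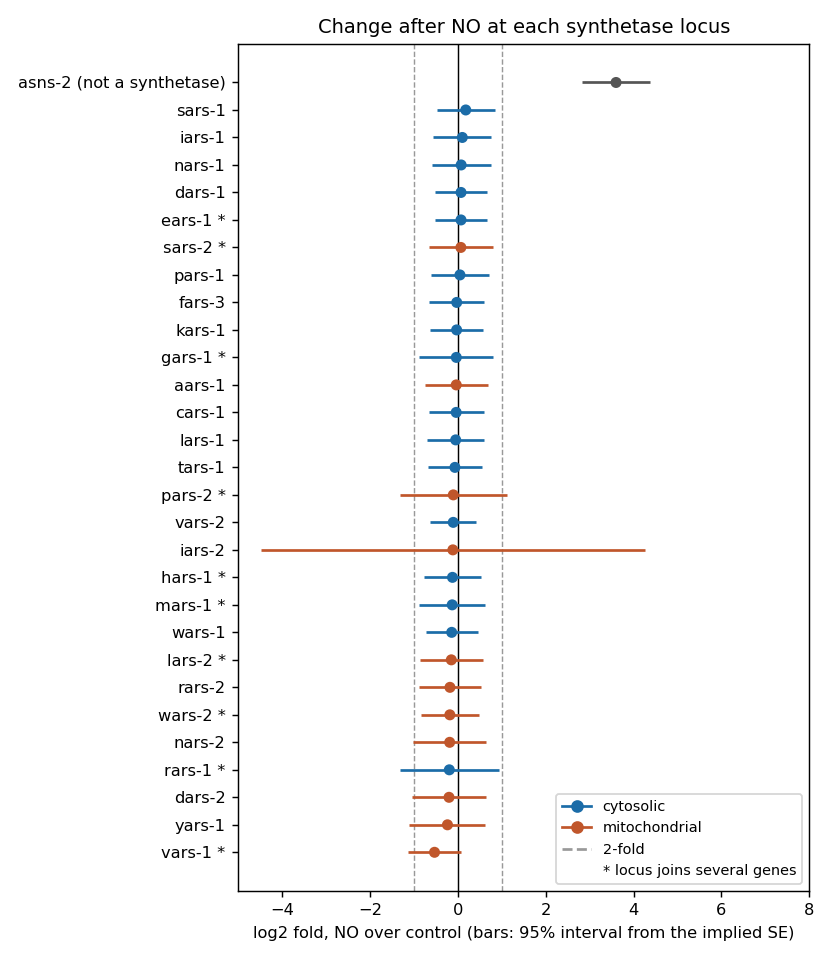
Deposited log2 fold of NO over control (horizontal axis) for each synthetase locus, with bars for the 95% interval from the implied SE, and for asns-2, which is not a synthetase. The 28 synthetase points lie between -0.53 and 0.18, and asns-2 stands at 3.60.

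Names of the loci were checked before the loci were sorted by compartment. By convention a name ending in 1 marks the cytosolic enzyme and one ending in 2 the mitochondrial enzyme, but 4 loci go against it. The alanyl gene aars-1 encodes the mitochondrial enzyme, and vars-2, the gene now called glp-4, encodes the cytosolic valyl enzyme, which leaves vars-1 as the mitochondrial one. The locus listed as yars-1 was flanked in the table's order by cif-1 and miro-1. In the reference annotation (WBcel235) the gene now called yars-2, the mitochondrial tyrosyl enzyme, lies between or near cif-1 and miro-1. The gene now called yars-1 lies elsewhere and has its own row under the sequence name Y105E8A.19. Every other locus whose gene could be placed, 26 in all, lay between or near the loci that flank it in the table's order. The check allowed some distance outside the flanking loci, so it places a gene in a region and not strictly between neighbours. Sorted in this way, 17 loci were cytosolic and 11 mitochondrial. Glycyl, histidyl, lysyl, threonyl and cysteinyl enzymes were each represented by a single locus, counted here as cytosolic, although such genes can serve both compartments.

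Of the 28 loci, 10 also contain another gene, so their level and fold cannot be assigned to the synthetase. The partners that could be placed lie on the same strand. Where they do not overlap, 5 to 196 bases separate them in the reference annotation. The locus of wars-2, the mitochondrial tryptophanyl gene, also holds atp-2, a subunit of the mitochondrial ATP synthase, and prmt-5, an arginine methyltransferase. This locus further holds C34E10.11, now mrps-26, a mitochondrial ribosomal protein gene. It had 1681 FPKM after NO and 1909.8 FPKM in control, far above any other member. The locus of rars-1, the arginyl gene, also holds rpb-8, an RNA polymerase subunit, and had 391 FPKM after NO and 448 FPKM in control (log2 fold -0.20, SE 0.57 in the deposited table). The 18 loci that hold only a synthetase are used below where levels of the compartments are compared. Other counts, medians and rankings include joined loci unless loci of 1 gene are named.

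Cytosolic enzymes were more abundant than mitochondrial ones in both conditions. Among loci of 1 gene, the 12 cytosolic loci ranged from 70.8 to 399 FPKM after NO and from 78.1 to 407 FPKM in control. The 6 mitochondrial loci ranged from 16.0 to 54.4 FPKM after NO and from 16.4 to 64.2 FPKM in control. The compartments did not overlap in either condition, although under the convention of names aars-1 and yars-1 would fall among the cytosolic loci and end that separation. This is a comparison of genes, not of replicates, and no test was made. All 28 loci stood above the median of the table by level, between percentiles 59.3 and 99.3.

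**Figure D2:**
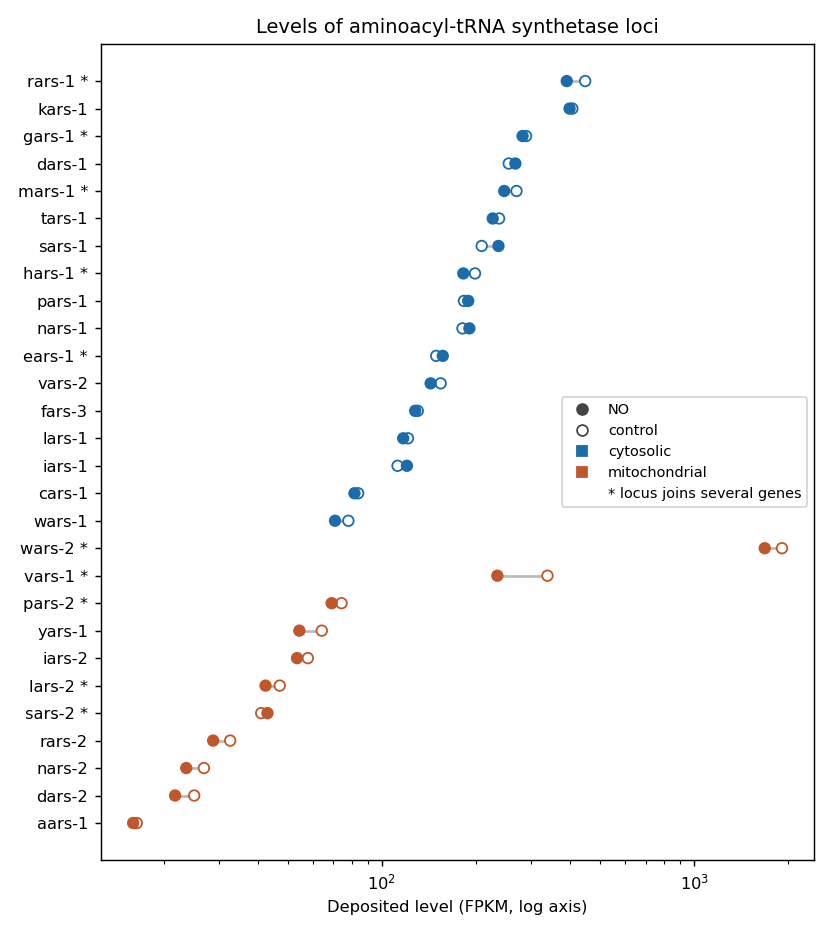
Deposited level in FPKM (horizontal log axis) of each synthetase locus after NO (filled) and in control (open), sorted by level within compartment. Cytosolic loci of 1 gene lie from 70.8 FPKM upward and mitochondrial ones up to 64.2 FPKM, and the starred loci join several genes.

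The most abundant cytosolic locus of 1 gene was kars-1, with 399 FPKM after NO and 407 FPKM in control, a log2 fold of -0.03 (SE 0.30) in the authors' deposited table. The aspartyl gene dars-1 had 268 FPKM after NO and 255 FPKM in control (log2 fold 0.07, SE 0.31 in the deposited table). The threonyl gene tars-1 had 226 FPKM after NO and 237 FPKM in control (log2 fold -0.07, SE 0.32 in the deposited table). None of these differences approached its SE. The highest fold of any member belonged to sars-1, the seryl gene, with 236 FPKM after NO and 209 FPKM in control. Its deposited log2 fold of 0.18 (SE 0.34, unadjusted p = 0.598, adjusted p = 0.99994) is smaller than its SE and not distinguishable from no change. The next in size were iars-1, the isoleucyl gene, with 120.3 FPKM after NO and 112 FPKM in control, and nars-1, the asparaginyl gene, with 191 FPKM after NO and 181 FPKM in control. Their deposited log2 folds were 0.10 (SE 0.34) and 0.07 (SE 0.34).

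The other cytosolic loci of 1 gene differed as little. The prolyl gene pars-1 had 189 FPKM after NO and 183 FPKM in control. The cytosolic valyl gene vars-2, known for the germline-deficient glp-4 mutant, had 143 FPKM after NO and 154 FPKM in control (log2 fold -0.11, SE 0.27 in the deposited table). The gene fars-3, a subunit of the phenylalanyl enzyme, had 128 FPKM after NO and 130.3 FPKM in control. These 3 loci had deposited folds of 1.03, 0.929 and 0.981, with no common direction. The leucyl gene lars-1 had 117 FPKM after NO and 121 FPKM in control, and the cysteinyl gene cars-1 had 81.7 FPKM after NO and 83.9 FPKM in control. The tryptophanyl gene wars-1 was the least abundant of the group, with 70.8 FPKM after NO and 78.1 FPKM in control, and had the lowest deposited log2 fold among them (-0.14, SE 0.30).

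Of the 5 joined cytosolic loci, rars-1, given above, had the highest control level and the lowest deposited log2 fold (-0.20) of all 17 cytosolic loci, both outside the range of the loci of 1 gene. The locus of ears-1, the glutamyl gene, shared with aph-2, a gamma-secretase subunit, had 157 FPKM after NO and 149 FPKM in control. The glycyl locus gars-1 had 282 FPKM after NO and 289 FPKM in control. The histidyl locus hars-1, shared with the splicing factor gene rbm-22 (listed as T11G6.8), had 182 FPKM after NO and 199 FPKM in control. The methionyl locus mars-1 had 246 FPKM after NO and 269.8 FPKM in control. Deposited log2 folds of these other 4 ran from -0.13 at mars-1 to 0.07 at ears-1, inside the range of the loci of 1 gene.

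Mitochondrial loci lay mostly below 0, at sizes that no single locus can resolve. Of 11 mitochondrial loci, 10 had a log2 ratio below 0 and 1 above, and of 17 cytosolic loci 11 were below and 6 above. Not counted here is mars-2, a locus outside the naming rule, with a deposited log2 fold of 0.01. The median log2 ratio, with 1 FPKM added to both levels, was -0.18 for the mitochondrial loci and -0.04 for the cytosolic loci, beside -0.03 over all 14285 loci whose mean reached 1 FPKM. Among loci of 1 gene the medians were -0.18 for 6 mitochondrial and -0.03 for 12 cytosolic loci. The difference between compartments was not tested, because the table has no replicate values. Loci of 10 to 100 FPKM, where most mitochondrial enzymes lie, had a median of -0.08 over the whole table, and loci over 100 FPKM had -0.14. Below 0 were 62.0% of the former and 76.6% of the latter. Centred on loci of the same abundance, the medians were -0.05 for mitochondrial and 0.11 for cytosolic loci, with 8 of 11 mitochondrial and 1 of 17 cytosolic loci below 0. The mitochondrial median thus stayed under the cytosolic one, while the sign of the cytosolic median turned.

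The mitochondrial aspartyl gene dars-2 had 21.8 FPKM after NO and 25.1 FPKM in control (log2 fold -0.20, SE 0.43 in the authors' deposited table). The mitochondrial asparaginyl gene nars-2 had 23.6 FPKM after NO and 26.9 FPKM in control (log2 fold -0.19, SE 0.42 in the deposited table). The mitochondrial arginyl gene rars-2 had 28.8 FPKM after NO and 32.7 FPKM in control (log2 fold -0.18, SE 0.36 in the deposited table). All 3 values were lower after NO by less than their SE. The locus listed as yars-1, the mitochondrial tyrosyl gene, had the lowest fold among loci of 1 gene, with 54.4 FPKM after NO and 64.2 FPKM in control (log2 fold -0.24, SE 0.44, unadjusted p = 0.589 in the deposited table). The mitochondrial alanyl gene aars-1 was the least abundant member, with 16.0 FPKM after NO and 16.4 FPKM in control. The joined loci of lars-2 (42.4 FPKM after NO, 47.1 FPKM in control) and pars-2 (69.1 FPKM after NO, 74.3 FPKM in control) were lower after NO as well. The joined locus of the mitochondrial seryl gene sars-2 was the exception, with 43.0 FPKM after NO and 41.1 FPKM in control.

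Among the 28 loci, 9 amino acids had both a cytosolic and a mitochondrial locus. The cytosolic locus had the higher log2 ratio in 8 of these pairs, all but that of arginine, whose cytosolic locus is joined with rpb-8, and in all 9 after centring on loci of the same abundance. Only 3 of these 9 pairs, those of aspartate, isoleucine and asparagine, have neither locus joined. In them the level of the cytosolic gene was 12.3, 2.25 and 8.06 times that of the mitochondrial gene after NO, and 10.2, 1.94 and 6.73 times in control. The cytosolic log2 ratio was 0.07, 0.10 and 0.07, and the mitochondrial one -0.19, -0.11 and -0.18. The isoleucine pair rests on iars-2, whose error is too wide to place it. Pairs share the same 2 conditions and libraries, so the shared sign is a description. Loci outside the naming rule, given below, are not in these pairs, and they would add tyrosine and methionine. For tyrosine the cytosolic locus Y105E8A.19 had the higher deposited log2 fold (-0.01, against -0.24 at the locus listed as yars-1). For methionine the cytosolic locus had the lower one (-0.13 at mars-1, a joined locus, against 0.01 at mars-2).

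The lowest fold of any member came from a locus joined with an oocyte gene. The locus of vars-1 and oma-2 had 234 FPKM after NO and 339 FPKM in control, a log2 fold of -0.53 (SE 0.30, unadjusted p = 0.0787, adjusted p = 0.99994) in the authors' deposited table. OMA-2 is a zinc finger protein needed for oocyte maturation, and its close relative oma-1 has a locus of its own, with 161 FPKM after NO and 210 FPKM in control (deposited log2 fold -0.38, SE 0.31). The oocyte gene rme-2, the yolk receptor, had 211 FPKM after NO and 299 FPKM in control (deposited log2 fold -0.50, SE 0.27), and puf-5, an RNA-binding protein gene of oocytes, had 295 FPKM after NO and 397 FPKM in control (deposited log2 fold -0.43, SE 0.27). All 3 oocyte markers were lower after NO, 0 of them were called, and their summed level was 668 FPKM after NO and 906 FPKM in control. Their part in the value at vars-1 was not tested. The 4 germline markers had a median log2 ratio of -0.14, nearer to that of abundant loci in general. The 3 sperm markers were all higher after NO (median log2 ratio 0.35). That median is the value of spe-9, a locus with 1.32 FPKM in control and an SE of 0.87 for its deposited log2 fold. The sperm markers gsp-3 and msp-3 had log2 ratios of 0.41 and 0.13. Also higher were the 3 muscle markers (median 0.17) and the pharynx locus (0.21). The median was 0.02 over 4 intestine loci, -0.07 over 4 neuron loci and 0.07 over the 3 epidermis loci of at least 1 FPKM. The epidermis median is the value of elt-3, and the other epidermis loci went in opposite directions. The log2 ratio was 1.32 at rol-6, with 7.88 FPKM after NO and 2.55 FPKM in control, and -0.34 at col-19. By the deposited test rol-6 had an unadjusted p of 0.0203 and an adjusted p of 0.99994. The pharynx locus (myo-2), the muscle locus of unc-54 and the neuron locus of snb-1 are joined with other genes, so their values cannot be assigned to the marker. Each of 8 tissues or cell types had at least 1 marker locus, 26 loci in all, with 0 at a level of 0. The listed pharynx marker myo-1 was not found by name. The epidermis locus of dpy-7, joined with glb-16, had only 1.17 FPKM after NO and 0.691 FPKM in control.

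By structural class, class I enzymes, which share a Rossmann-type catalytic fold, had a median log2 ratio of -0.14 over 14 loci. Class II enzymes, built on a different fold, had -0.03 over 14 loci. The difference was not tested. Mammalian cells hold a set of cytosolic synthetases in a multienzyme complex. The 8 worm loci for those amino acids had a median log2 ratio of 0.01, with 4 above and 4 below 0, and the other 9 cytosolic loci had -0.04, with 2 above and 7 below 0. These signs depend on scaling. After centring on loci of the same abundance, 1 of the 17 cytosolic loci was below 0, namely rars-1 of the complex group (-0.06). Calls numbered 0 in each group, where 0.399% of all loci were called.

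**Figure D3:**
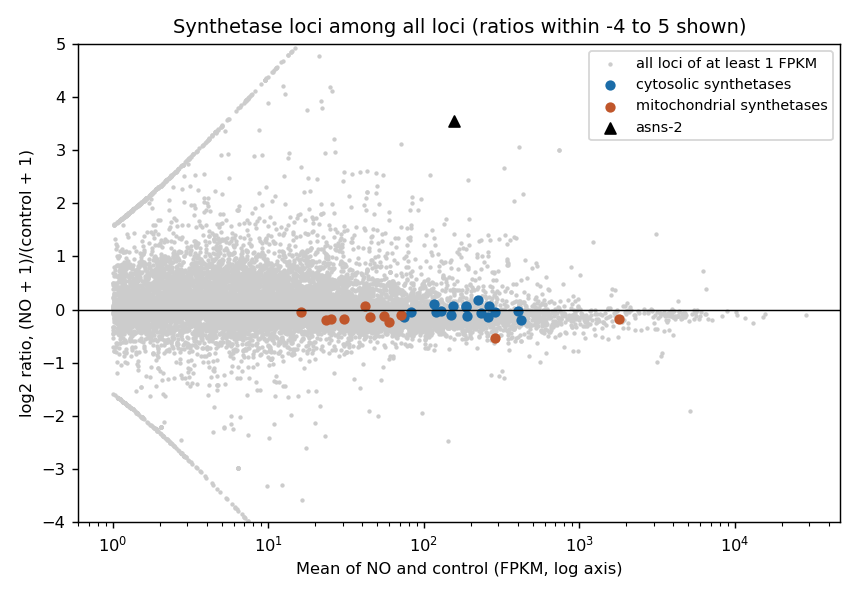
Log2 of (NO + 1)/(control + 1) (vertical axis) against the mean level in FPKM (horizontal log axis) for the 14285 loci of at least 1 FPKM, with synthetase loci coloured by compartment. The vertical axis is cut, so the most extreme ratios, which run from -9.49 to 10.3, are not shown. The synthetases lie from -0.53 to 0.18 on the vertical axis, and asns-2, a triangle, lies at 3.55.

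The table also lists 3 loci under sequence names that carry synthetase symbols today and lie outside the naming rule. Y105E8A.19, the cytosolic tyrosyl gene, had 68.9 FPKM after NO and 69.4 FPKM in control. Y105E8A.20, now mars-2 and mitochondrial by the number in its name, had 28.1 FPKM after NO and 28.0 FPKM in control. Y23H5A.1, now cars-2 and annotated as a pseudogene, had 4.83 FPKM after NO and 4.47 FPKM in control. Their deposited log2 folds were -0.01, 0.01 and 0.11, and 0 of them were called.

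Other genes of translation are given beside the 0.399% of all loci that were called, a share at which lists of these sizes hold few or no calls. Log2 ratios below 0 were held by 62.0% of all loci of 10 to 100 FPKM and 76.6% of those over 100 FPKM. Of 30 loci for initiation factors, which load the ribosome onto mRNA, 0 were called, 26 had a log2 ratio below 0, and the median was -0.08. Their 2 most abundant loci were those of inf-1 (924 FPKM after NO, 1023 FPKM in control) and ife-1 (859 FPKM after NO, 934 FPKM in control), both joined with other genes. Of 6 elongation factor loci, 0 were called and the median was -0.02. The most abundant, eef-2, which drives translocation of the ribosome, had 2054 FPKM after NO and 2069.7 FPKM in control, and eef-1G had 1984 FPKM after NO and 2026 FPKM in control. The highest ratio among elongation factors was at eef-1A.2, with 1118 FPKM after NO and 644 FPKM in control. Its deposited log2 fold was 0.80 with an SE of 0.70. The 13 loci for tRNA maturation and modification gave 0 calls, 12 ratios below 0 and a median of -0.11. The most abundant of these were hpo-31, joined with sel-10, at 109.8 FPKM after NO and 127 FPKM in control, and nsun-2, a tRNA methyltransferase gene listed as Y48G8AL.5, at 68.8 FPKM after NO and 77.4 FPKM in control. Among 5 mitochondrial translation factor loci, 0 were called and the median was -0.09. Cytosolic ribosomal protein loci, 76 in all, had a median of -0.08 with 0 calls, and 66 mitochondrial ribosomal protein loci had -0.16 with 0 calls. Joined loci made up 29 of the former and 23 of the latter. The mitochondrial set includes the joined locus of wars-2 and mrps-26, so it is not fully separate from the synthetases.

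Among genes of the amino acid shortage response, a single gene was called. The list was drawn up with its rise and other earlier results of these data already known. Its counts and median are thus a description and no evidence of enrichment. Of 13 loci, 1 rose and 0 fell by the authors' deposited test, against 0.399% of all loci called, 9 had a log2 ratio above 0, and the median was 0.16. The called gene was asns-2, an asparagine synthetase, with 289 FPKM after NO and 23.8 FPKM in control, a log2 fold of 3.60 (SE 0.39, adjusted p listed as 0 by the authors in their deposited table). Its interval ran from 7.11-fold to 20.7-fold, and the intervals of 27 synthetase loci, all but iars-2, ended at 2.17-fold or lower. Asparaginyl-tRNA synthetase, which uses the product of asparagine synthetase, had deposited folds of 1.05 (nars-1) and 0.878 (nars-2). Another 2 members of the list passed only an unadjusted p of 0.05, so that 3 of 13 passed it, against 3.09% of all loci. These 3 include asns-2, whose rise was known beforehand, so the shares cannot be compared as a test. M153.1, now pycr-1, whose enzyme makes the last step of proline synthesis, had 18.9 FPKM after NO and 6.29 FPKM in control (unadjusted p = 0.0012, adjusted p = 0.173 by the authors' deposited table). The second asparagine synthetase gene asns-1 had 8.54 FPKM after NO and 4.12 FPKM in control (unadjusted p = 0.0438, adjusted p = 0.99994 in the deposited table). Beside these, alh-13, whose enzyme acts earlier in proline synthesis, had 25.6 FPKM after NO and 8.77 FPKM in control with a wide error (log2 fold 1.54, SE 0.88, unadjusted p = 0.0779 in the deposited table), and F26H9.5 had 78.2 FPKM after NO and 96.0 FPKM in control (log2 fold -0.30, SE 0.48). Prolyl-tRNA synthetase, which uses proline, had deposited folds of 1.03 (pars-1) and 0.930 (pars-2, a joined locus). The regulators of the response were not called, which does not show that their levels were equal. The gene of the ATF4 homologue, listed as atf-5, had 87.1 FPKM after NO and 92.3 FPKM in control, and gcn-1, a cofactor of the kinase that senses uncharged tRNA, had 26.9 FPKM after NO and 24.3 FPKM in control. The locus of that kinase, gcn-2, is joined with another gene and had an SE of 1.47. Activity of ATF4 is set mainly by translation of its mRNA, which these data do not measure.

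**Figure D4:**
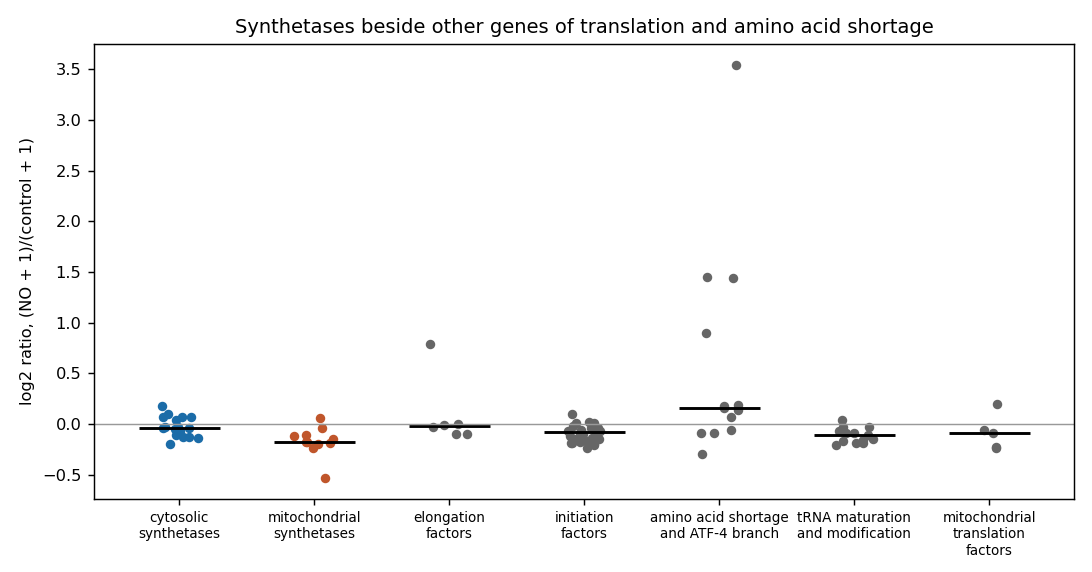
Log2 of (NO + 1)/(control + 1) (vertical axis) for single loci (points) of the synthetases and of 5 related gene lists, with bars at the medians. Medians are -0.04 for cytosolic and -0.18 for mitochondrial synthetases and run from -0.11 to -0.02 over the 4 other translation lists, and asns-2 is the point at 3.55 in the amino acid shortage list.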

How the data were processed

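RNA of whole worms, 2 NO-treated and 2 control samples, was sequenced from TruSeq libraries, per the labels' protocols. Per the submitters' processing notes, the tools included TopHat2 (2.0.2), Cufflinks (2.0.5) and R (2.15.2), in no stated order; build and annotation were not given in the sources used here. The authors deposited 1 table with a level per condition, read as FPKM from its layout, a fold (ratio of NO to control), its log2, a test score, a p-value and an adjusted p-value, with samples combined. The score's sign is opposite to the fold. The adjusted p matched a Benjamini-Hochberg adjustment over 16562 loci within 3.4e-06. Count models and limma could not be run on 1 value per condition, so the deposited test was used. SE was the log2 fold over the score, and 95% intervals were normal ones. Log2 ratios added 1 FPKM, over loci whose mean reached 1 FPKM, which all 28 passed.

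Members followed the name pattern, and all are named. Full values were set for the 3 highest and 3 lowest ratios, the 3 most abundant, the 2 least abundant and each pair, and, in lists, for called genes and the 2 most abundant; other named genes were chosen after their values were seen. Members and lists were chosen with earlier results of these data known. Compartments came from gene names with 4 changes, since the reference tables hold no product names; 26 members matched by symbol. Adjustment was tested on simulated data. Alternatives are given in the closing section. Python 3.11.15, pandas 2.3.3 and numpy 2.4.6 were used.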

Additional observations from a re-analysis of the deposited data

How the results depend on the processing

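With the adjusted p threshold at 0.01 or 0.1, with a 2-fold minimum, with adjustment over loci of at least 1 FPKM or without joined loci, and members taken by current symbol, 0 synthetase loci were called. Over the whole table, 42 loci were called at 0.01, against 66 at 0.05. Log2 ratios kept their sign at all 28 loci with a pseudocount of 0.1 or none, and the counts were the same with a minimum mean of 10 FPKM or none. The direction of the family depends on scaling. Of 28 loci, 21 had a ratio below 0, against 9 after centring on loci of the same abundance and 13 of 18 without joined loci, and the median of -0.09 became 0.04 after that centring. The centring turned 12 ratios positive: cars-1 0.11, fars-3 0.12, gars-1 0.10, hars-1 0.012, iars-2 0.018, kars-1 0.11, lars-1 0.10, mars-1 0.0060, pars-2 0.046, tars-1 0.068, vars-2 0.030 and wars-1 0.0096. Centring on all loci turned fars-3 (0.0050) and kars-1 (0.0027). Mitochondrial medians ran from -0.18 to -0.05 under every alternative, with -0.15 where compartments follow the number in the name. The members by current symbol and the omission of iars-2 were chosen after seeing the data. No paired analysis was possible because the table combines the samples of each condition; for the same reason no replicate could be left out. Compartments by product name and the promoter motif count were not run, since neither product names nor sequences were in the references used here. Unknown depth and the median SE of 0.34 limit what a single locus can show.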
